A study of Bos taurus with 2 samples.

Results

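The MHC region is the stretch of bovine chromosome 23 from 25000001 to 29000000 in the coordinates of the deposited files, which follow ARS-UCD1.2 according to the submitters' processing notes. It was taken by position alone. Its CpG sites, with the calls of both strands added together, were grouped into 1 kb windows, and a window was a member when each sample had 20 or more calls in it. Of 3974 windows with a CpG site, 3162 passed. They are compared with 43183 windows in the rest of chromosome 23, out of 2189146 windows passing on chromosomes 1 to 29 and X.

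Methylation was measured by whole-genome bisulfite sequencing (WGBS), in which unmethylated cytosines are converted, so that a read over a CpG site records it as methylated or not, which is called here a call. The samples, Bone_1 and Bone_2, are both labelled as bone of female Holstein cattle, a dairy breed, with no treatment, genotype or age in the labels used here. They form a single group (n = 2), and the labels do not say whether they came from the same animal, so an SD here may be technical and is not one between animals. The DNA came from whole tissue, so a level averages over all cell types present, and the tissue label could not be checked against marker genes, since no expression was measured.

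The major histocompatibility complex holds the genes of antigen presentation. Class I molecules show peptides made inside a cell to cytotoxic T cells, and class II molecules, which are normally made by B cells, dendritic cells and macrophages, show peptides taken up from outside to helper T cells. In cattle these genes are called BoLA; between the class II and class I genes lies a gene-dense class III stretch with complement, tumour necrosis factor and heat shock genes, and a part of the class II genes (class IIb) lies elsewhere on the chromosome. CpG methylation is high over most of a mammalian genome and low at many CpG-rich gene starts.

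The region holds 48075 CpG sites, covered by 841694 calls in Bone_1 and 576960 in Bone_2. A site had on average 17.5 and 12 calls, with medians of 13 and 11. The weighted level, which is the sum of methylated calls over all calls, was 61.3% in Bone_1 (95% Wilson interval 61.2% to 61.4%) and 50.9% in Bone_2 (50.8% to 51.0%), giving 56.1% ± 7.38 (SD, n = 2). In the rest of chromosome 23 it was 72.7% and 58.2%. Bone_1 was thus the higher sample inside and outside the region, and the region was lower than the rest of the chromosome in each sample. The Wilson intervals cover counting error only, because the reads carried no molecular identifiers and sites on the same read are called together.

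Among the member windows the median level was 75% in Bone_1 and 55.6% in Bone_2, beside 80.1% and 61.1% in the rest of the chromosome. Windows over 80% made up 35.4% of members in Bone_1 and 2.62% in Bone_2, beside 50.2% and 4.64%. The window levels of the samples correlated with Pearson's r = 0.770 and Spearman's rho = 0.668 over 3162 windows, which share libraries and depth, and with r = 0.802 and rho = 0.710 over the rest. At the minimum number of calls, the 113 windows with 20 to 24 calls in the shallower sample had medians of 66.4% and 47.7%, and the 135 windows with 15 to 19 calls had 72.2% and 43.6%. The windows just outside the minimum were thus higher in Bone_1 and lower in Bone_2 than those just inside it. At the bounds of the region, the last 100 kb before its start had 69.0% and 57.0% and its first 100 kb had 62.7% and 51.6%. Its last 100 kb had 47.9% and 47.1%, followed by 74.6% and 52.4% in the next 100 kb.

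Coverage was uneven across the region. In all, 812 windows (20.4%) had too few calls and were left out, beside 10.5% in the rest of chromosome 23. Bone_1 alone was short of calls in 470 of them, Bone_2 alone in 114 and both in 228. Among windows with 10 or more CpG sites, 77 of 1825 (4.22%) were left out in the region and 233 of 25331 (0.92%) elsewhere on the chromosome. The 100 kb with most windows left out, 92 of them, run from 25600001 to 25700000 and hold the class II genes BOLA-DQB, BOLA-DQA5, BOLA-DQB1 and LOC100848815. There a CpG site had 0.854 calls in Bone_1 and 2.52 in Bone_2. The next were 86 windows from 26200001 to 26300000 and 56 windows from 26100001 to 26200000.

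The longest stretch without any call in both samples ran from 25606758 to 25617155, 10.4 kb with 83 CpG sites at BOLA-DQB. A second, from 25638386 to 25646016, held 64 CpG sites at BOLA-DQA5. In Bone_2 the stretch at BOLA-DQB went on to 25631433 and spanned 24.7 kb with 168 sites. Bone_2 also had no call at 90 sites within 0.778 kb at the class I gene BOLA and at 84 sites within 0.712 kb at the class I gene JSP.1. Stretches without calls were not particular to the region, since the longest elsewhere on chromosome 23 held 718 sites in 23.9 kb. Why these sites have no calls was not tested.

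Methylation also varied along the region. Over 40 bins of 100 kb the level ranged from 44.1% to 77.0% in Bone_1 and from 39.3% to 62.6% in Bone_2, with an SD between bins of 9.35 and 4.80 points. Bone_2 was the lower sample in 39 of 40 bins. The lowest bin by the mean of the samples was the thinly covered one at the DQ genes, with 44.6% in Bone_1 and 42.5% in Bone_2. It was followed by the bin from 27500001 to 27600000, which holds the heat shock genes and the LY6G6 genes, with 44.1% and 44.7%, and by the bin from 27200001 to 27300000, which reaches from PBX2 to TNXB, with 48.5% and 45.9%. The highest bins by the same mean were 25300001 to 25400000 around GCM1 (76.9% and 62.6%), 25100001 to 25200000 with the glutathione S-transferase genes (74.8% and 58.5%) and 27300001 to 27400000 with TNXB, CYP21A2 and C4A (72.6% and 57.7%).

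**Figure D1:**
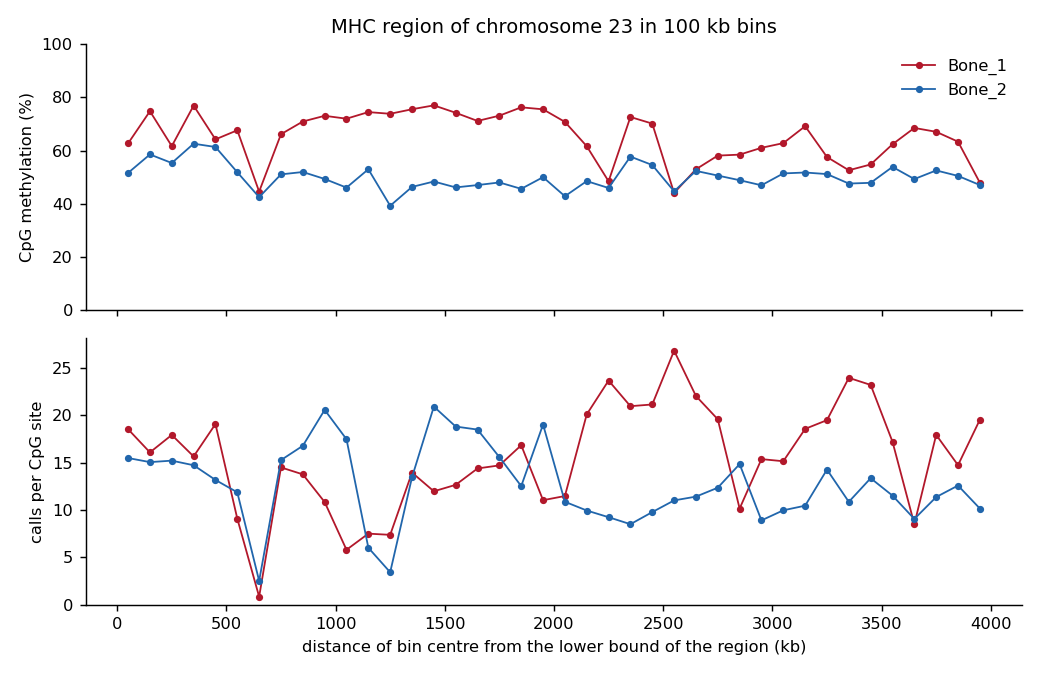
CpG methylation in percent (upper panel) and calls per CpG site (lower panel) in 40 bins of 100 kb of the MHC region, plotted against the distance of the bin centre from the lower bound of the region in kb; each point is a bin in a sample. The lines lie farthest apart between 1000 and 2000 kb, the part from 26 to 27 Mb, where Bone_1 is at 74.5% and Bone_2 at 47.5%, and calls drop to 0.854 and 2.52 per site in the bin of the DQ genes.

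The samples differed most between 26 and 27 Mb. This part holds a portion of TSBP1, which encodes a testis-expressed basic protein, and genes named only by number. Its level over all calls was 74.5% in Bone_1 and 47.5% in Bone_2, a difference of 27 points, while the part from 25 to 26 Mb differed by 12.3 points (67.5% and 55.3%), that from 27 to 28 Mb by 8.33 (58.2% and 49.9%) and that from 28 to 29 Mb by 8.65 (58.7% and 50.1%). It also was the part with the fewest CpG sites, 5880, and was covered by 11.8 calls per site in Bone_1 and 14.5 in Bone_2. These calls were unevenly spread, and each 100 kb of the part had between 22 and 86 windows left out. From 26200001 to 26300000 only 11 windows passed, and 71.5% of sites had no call in Bone_2, beside 7.42% in Bone_1. Bone_1 was higher in 547 of the 560 passing windows of this part, with medians of 73.6% and 48.5%. In its 100 kb bins the median difference between the samples lay between 19.9 and 28.9 points.

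To compare at equal CpG number, each window's difference was set against the mean difference of windows with the same number of CpG sites. Among the windows of chromosome 23 outside the region, the expected difference for the part from 26 to 27 Mb was 17.1 points and the measured mean was 24.2, an excess of 7.17 points. The other parts of the region had a smaller difference than the rest of the chromosome (excess of -1.25, -1.23 and -1.82 points), and 49 parts of 1 Mb outside it ranged from -4.37 to 3.1. Over chromosomes 1 to 29, 2498 parts of 1 Mb had 100 or more windows, and none had a larger excess (7.41 points here, at most 4.92 elsewhere). On the scale of odds ratios, with all calls of a part pooled, the part again stood first, with 3.22 beside a median of 1.97 and at most 2.93 in another part. With 50 or more calls per window the excess was 7.34 points over 314 windows. With 2 kb windows it was 8.08 points, beside at most 7.02 elsewhere, so that the lead over the next part was smaller. The part was picked out after its values were seen, the order is a description without a test, and the difference is between 2 samples of a single group.

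At equal CpG number the windows of the region were less methylated than those of the rest of chromosome 23. Their mean level was 69.4% beside 75.2% in Bone_1 and 52.9% beside 58.7% in Bone_2. The difference was -5.75 and -5.83 points, with a mean of -5.79 ± 0.0549 (SD, n = 2). Windows under 20% made up 5.34% of members in Bone_1 and 5.66% in Bone_2, beside 3.02% and 3.13%, which is 2.43 ± 0.143 percentage points more. Both differences were far larger than the spread between the samples, but over 2 samples an exact sign permutation test cannot give a p below 0.5, and windows of a sample are not replicates. Calls per CpG site at equal CpG number differed by 0.244 in Bone_1 and by -2.17 in Bone_2.

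The lower level was not particular to the region. Of the 12 other segments of 4 Mb on chromosome 23, 2 were lower than the region and 10 were higher in each sample, over a range from -8.85 to 11.8 points in Bone_1 and from -8.13 to 9.21 in Bone_2. The lower ones were its neighbours, from 21 to 25 Mb (-7.09 and -8.13 points) and from 29 to 33 Mb (-8.85 and -7.00). Against these neighbours alone the sign turned, and the region was 4.11 ± 0.846 points higher, and the difference in the share of windows under 20% was -5.14 ± 0.125 points. The share of windows under 20% exceeded that of the rest by 8.06 and 7.47 points in the neighbour above and by 0.964 and 1.52 in the neighbour below. All 3 segments had lower levels than the other segments of chromosome 23. Within the region, every 1 Mb part was below the rest of the chromosome, by -4.47 and -3.22 points from 25 to 26 Mb, -3.33 and -10.5 from 26 to 27 Mb, -6.37 and -5.13 from 27 to 28 Mb, and -7.69 and -5.87 from 28 to 29 Mb (Bone_1 and Bone_2 in each case).

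**Figure D2:**
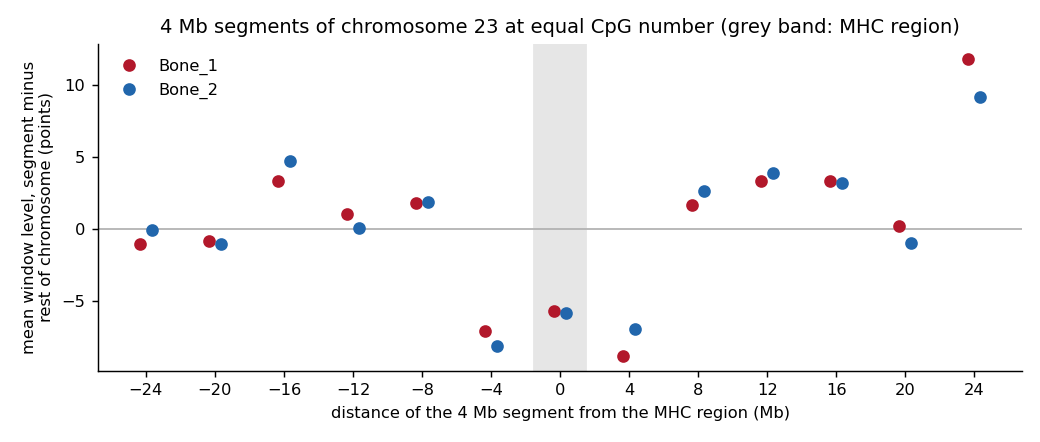
Mean window level of each 4 Mb segment of chromosome 23 minus that of the rest of the chromosome at equal CpG number, in percentage points, against its distance from the MHC region in Mb; each point is a segment in a sample, and the grey band marks the region. The region lies at -5.75 and -5.83 points, between neighbours that lie lower in both samples.

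The median of the members was lower in every class of CpG number and differed most in windows with 40 to 59 sites. Members with 1 to 9 CpG sites had median levels of 73.0% and 53.1%, beside 77.6% and 58.6% in the rest of chromosome 23. Those with 10 to 19 sites had 77.3% and 58.5%, beside 81.3% and 62.5%. Those with 20 to 39 sites had 80.7% and 60.5%, beside 83.1% and 64.1%. The 92 members with 40 to 59 sites had medians of 13.6% and 12.7%, whereas the 1126 such windows elsewhere had 82.7% and 63.6%. The quartiles of these members, 2.57% and 83.8% in Bone_1, show that they include both low and high windows. The 56 members with 60 or more sites had 1.42% and 1.16%, beside 4.37% and 5.50%. The classes were compared with the whole rest of chromosome 23 and not with the neighbours alone. Against those, the region had the smaller share of windows under 20% at equal CpG number (-5.14 points).

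**Figure D3:**
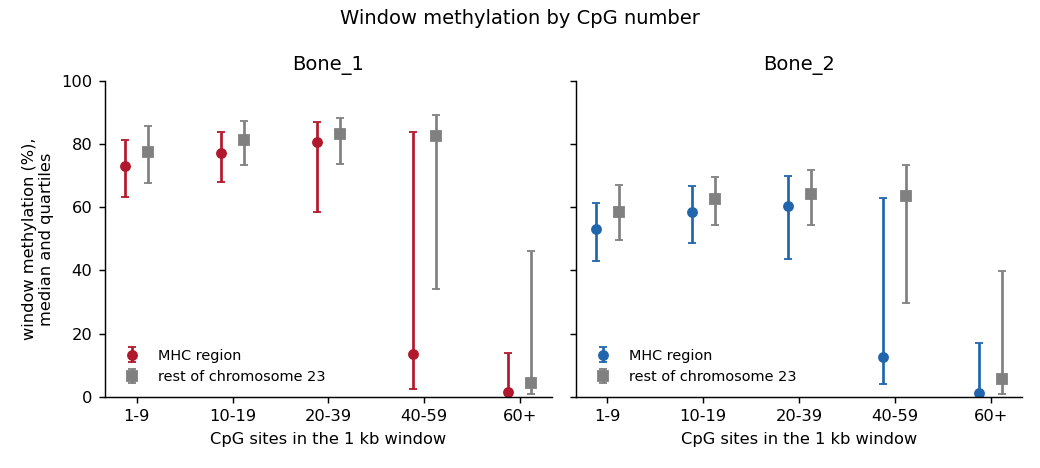
Methylation of 1 kb windows in percent by the number of CpG sites in the window, as the median (symbol) and quartiles (bars) over windows, for the MHC region and the rest of chromosome 23 in each sample. The medians of the region and of the whole rest of the chromosome differ most at 40 to 59 sites. There they are 13.6% and 82.7% in Bone_1 and 12.7% and 63.6% in Bone_2. The neighbours alone are not shown.

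Of 148 CpG-dense members, with 40 or more sites, 88 (59.5%) were under 20% in both samples and 26 (17.6%) over 60% in both. In the rest of chromosome 23 the shares were 35.7% (595 of 1668) and 44.8%. The neighbours alone were not compared. Dense windows over 60% in both samples were most frequent from 27400001 to 27500000, around the complement genes C2 and CFB (6 windows), and 4 each lay in the bins of TNXB and C4A, of the heat shock and LY6G6 genes, and of MDC1 and PPP1R10.

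In all, 141 members (4.46%) were under 20% in both samples, beside 2.31% of windows in the rest of the chromosome. They formed 89 runs of adjacent windows, 12 of them with 3 or more windows, and 58 of the runs (65.2%) lay within 500 bp of a measured gene end. This was so for 50.2% of the runs in the rest of chromosome 23. Gene ends are denser in the region, where 13.2% of all members lie as near to an end, beside 4.03% of windows elsewhere on the chromosome. The longest run, 6 windows from 28323001 to 28329000, lay at NRM, which encodes a protein of the nuclear envelope, and PPP1R18, a partner of protein phosphatase. Its level was 4.25% in Bone_1 and 4.18% in Bone_2. The next, 4 windows from 28372001 to 28376000 at MRPS18B, a mitochondrial ribosomal protein gene, and PPP1R10, was at 0.766% and 1.41%. Of the 10 runs of 3 windows, the 3 with most CpG sites lay from 27520001 to 27523000 at HSPA1A (6.25% and 7.07%), from 25472001 to 25475000 at ELOVL5, a fatty acid elongase gene (1.71% and 5.90%), and from 28284001 to 28287000 at IER3 and FLOT1 (1.48% and 4.55%). All 5 runs lie far below the median window by definition, because a run needs windows under 20% in both samples.

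Gene names were placed on the files with RefSeq's gene table of ARS-UCD2.0, a later assembly than the one named for the files, and the table gives no strand. To see whether the positions fit, the level within 500 bp of the 285 ends of the 143 protein-coding genes was compared with that at shifted positions. It was 50.5% in Bone_1 and 40.4% in Bone_2 at no shift, beside 65.2% to 70.3% and 52.0% to 56.2% at shifts of 2000 to 20000 bp, and CpG sites were densest at no shift (28.3 beside 16.0 to 18.6). Between 26 and 27 Mb only 9 ends had enough calls, with 70.3% and 41.9% at no shift, so that gene positions could not be checked there. From 25 to 26 Mb, where the class II genes lie, CpG sites were densest at no shift, but the level was lower at a shift of 500 bp upward (54.8% and 42.5%) than at none (59% and 46.7%), so the positions of the class II ends are less sure. As the start of a gene could not be told from its end, a gene is described by its span and by both ends, called lower and upper by coordinate.

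Of the genes with at least 1 measured end, 68 had an end under 20% in both samples. This is 50% of those genes, beside 59.6% of all protein-coding genes. All 4 class I genes of the list had such an end. With a threshold of 10%, only BOLA-NC1 and JSP.1 of them would have, as BOLA was at 17.4% in Bone_2 and MIC1 at 16.9% in Bone_1. Of the class II genes only BOLA-DRA and BOLA-DRB2 had a measured end, and neither had a low one, nor had BTNL2, which is on the same list. The upper end of BOLA-DRA was near the threshold, at 20.8% in Bone_1 and 27.5% in Bone_2. Both counts are small, and ends of other class II genes were low on fewer calls than the minimum. The lower end of BOLA-DRB3 was at 0 of 17 calls in Bone_1, which allows a level of up to 17.6%, and at 5.41% of 74 in Bone_2. That of BOLA-DQB1 was at 7.69% of 13 calls and 7.41% of 27. A member window in BOLA-DQB1, from 25674001 to 25675000, was at 0 of 35 calls in Bone_1 and 8.11% of 37 in Bone_2. Member windows under 20% in both samples also lay between LOC100848815 and BOLA-DRB3, starting at 25703001, 25715001 and 25718001. Of the other lists, such an end was found for 4 of 9 genes of complement and its neighbours, 5 of 9 of the TNF cluster, both HSPA1 genes, 16 of 33 other class III genes, 23 of 31 framework genes of the class I stretch (genes that do not present antigen and lie between class I genes) and 1 of 5 TRIM genes. In the complement list these were STK19, DXO, SKIC2 and NELFE, and not the complement genes C2, CFB and C4A. In the TNF cluster they were LST1, NCR3, NFKBIL1, ATP6V1G2 and DDX39B, and not TNF, LTA or LTB. Adjacent genes can share a low stretch, as STK19 and DXO do, so the genes are not separate counts. The list of class IIb genes and their neighbours outside the region had such an end for 8 of 13 genes. Of its 6 class II genes BOLA-DMA alone had such an end, whereas all 7 of the others did (TAP1, TAP2, PSMB8, PSMB9, BRD2, RXRB and RING1), which are not class II genes.

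Among the class II genes, BOLA-DRA, which encodes the alpha chain of the DR molecule, had a span level of 70.1% in Bone_1 (95% Wilson interval 66.8% to 73.2%) and 52.1% in Bone_2 (48.3% to 55.9%). Its upper end, with 106 and 160 calls on 7 CpG sites, was at 20.8% and 27.5%. BOLA-DRB3, a DR beta chain gene, was at 56.4% and 31.3% over its span, BOLA-DRB2 at 77.4% and 52.3%, and BTNL2, a butyrophilin-like gene that dampens T cells, at 75.5% and 57.5%. In these 4 genes Bone_1 was higher, with Fisher's exact test giving adjusted p-values from 2.44e-133 to 4.64e-12. On the 69 of 106 sites of BOLA-DRB3 called in both samples, its levels were 44.6% and 31.3%. The DQ genes, which encode the other class II molecule of this list, had few calls. BOLA-DQA2 was at 52.3% in Bone_1 (109 calls) and 25.9% in Bone_2 (58 calls), BOLA-DQB1 at 46.3% (227 calls) and 23% (191 calls). On the 11 sites of BOLA-DQA2 called in both samples, the levels were 37.3% and 27.1% and did not pass Fisher's exact test (adjusted p = 0.332). LOC100848815, listed with BOLA-DQA1 as a synonym, was at 32.0% (75 calls) and 28% (314 calls). BOLA-DQA5 had 17 and 8 calls and BOLA-DQB 6 and 0, too few for a level. With near-identical gene copies and allelic sequences in this family, reads could be placed on the wrong copy or lost, and these levels are therefore uncertain.

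In each of the 4 class I genes on the list the upper end was the less methylated. BOLA-NC1, a non-classical class I gene, was at 0.439% in Bone_1 and 1.92% in Bone_2 at its upper end (66 CpG sites, 683 and 468 calls) and at 78.9% and 62.7% at its lower end. JSP.1 was at 0.735% and 0.488% at its upper end (69 sites, with 1.97 and 2.97 calls per site) and at 88.3% and 60.2% at its lower end. BOLA was at 4.79% and 17.4% at its upper end, where the 167 calls of Bone_1 fell on 42 of 57 sites and the 144 calls of Bone_2 on 36. Its lower end was at 56.7% and 47.5%. MIC1, a class I-related gene of the kind recognised by natural killer cells, was at 16.9% and 5.60% at its upper end and at 41.5% and 26.9% at its lower end. Over its span BOLA-NC1 was higher in Bone_2 (15.5% and 28%, Fisher's exact test, adjusted p = 2.68e-18). A span level pools all calls, however, and the parts of this gene differed in direction. A run of 2 low windows lay there from 28551001 to 28553000. It was at 5.66% of 1997 calls in Bone_1 and 4.55% of 989 in Bone_2. Bone_1 was also the higher sample at the lower end, and Bone_2 at the upper end. How far the spread of calls sets the span direction was not tested. The span of BOLA was at 19% and 32.3%, but Bone_1 had calls on 140 of its 155 sites and Bone_2 on 65. On the 60 sites called in both samples it was at 36.4% and 32.8%, the opposite direction, and did not pass Fisher's exact test (adjusted p = 0.304). JSP.1 (42.3% and 26.3%, adjusted p = 0.0002) and MIC1 (58.0% and 43.3%, adjusted p = 3.31e-24) were higher in Bone_1 by the same exact test. On the 25 sites of JSP.1 called in both samples the levels were 66.5% and 40.8%. Class I genes outside the list, chosen after their values were seen, did not all have the same low end. The gene BoLA has an annotated span of 1956 CpG sites (57.4% and 45.9%), which also covers windows of MIC2 and MIC1. Its span level is thus not that of a single gene, and its ends need not compare with those above. BoLA was at 6.70% and 5.98% at its lower end and at 88.6% and 75.4% at its upper end. MIC2, a relative of MIC1 (45.7% and 35.8% over its span), was at 9.64% and 15.6% at its upper end and at 55.6% and 46.3% at its lower end. Class I genes, too, have near-identical copies, and BOLA and JSP.1 had only 1.70 to 5.61 calls per site.

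In the class III stretch the spans ranged widely. In the TNF cluster, LTB, which encodes lymphotoxin beta, was lowest at 8.78% in Bone_1 and 9.11% in Bone_2, and LTA, the lymphotoxin alpha gene, highest by the mean of the samples at 83.3% and 65.5%. LST1, a gene of leukocytes, was at 47.7% and 36.2%, and AIF1, a macrophage gene, at 78.1% and 67.7%, the highest of the cluster in Bone_2. The gene of tumour necrosis factor itself, TNF, chosen after its values were seen, was at 44.7% and 52.1%. The inducible heat shock gene HSPA1A was at 6.31% and 7.33% over its span, and its neighbour HSPA1L at 62.5% and 57.4%, with a lower end at 2.97% and 1.13%. In these genes HSPA1A and LTB did not pass Fisher's exact test (adjusted p = 0.0577 and 0.860).

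Of complement and its neighbours, CFB, which encodes complement factor B, was at 85.6% and 62.9% and SKIC2, an RNA helicase gene, at 83.7% and 64.5%, but the upper end of SKIC2 was at 1.85% and 0.600%. STK19 was at 47.3% and 48.4% over its span with an upper end at 0.402% and 0.380%. CYP21A2, the gene of a steroid hydroxylase, was at 43.9% of 2192 calls and 53.3% of 882 calls over its span. The span was thus higher in Bone_2 (Fisher's exact test, adjusted p = 3.12e-06). On the sites called in both samples the difference over the span, Bone_1 minus Bone_2, was -6.02 points. The ends of CYP21A2 went the other way, at 87.5% and 46.2% (lower end) and at 84.1% and 76.7% (upper end). CYP21A2 has a near-identical copy nearby. Of the other class III genes, APOM, an apolipoprotein gene, was at 9.15% and 15.1% and PRRT1 at 18.9% and 17.9%. The highest by the mean of the samples were AGER, which encodes the receptor for advanced glycation end products, at 87.4% and 72.3%, and LY6G6C at 86.6% and 72.2%.

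Of the framework genes of the class I stretch, IER3, an immediate early response gene, was at 0.873% and 0.489% over its whole span, and PPP1R18 at 20.2% and 18.5%. MDC1, a DNA damage response gene, was at 86.3% and 66.0% with a lower end at 0.522% and 1.28%, and MOG, a myelin gene, at 83.9% and 58.5%. The TRIM genes encode tripartite motif proteins, many of them ubiquitin ligases. TRIM39 was at 47.7% and 50.8% with an upper end at 0.465% and 0.466%, and TRIM31 at 52.4% and 47.7%. TRIM10 was at 73.2% and 56.8% and TRIM40 at 68.9% and 58.9%, and neither had a low end in both samples.

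**Figure D4:**
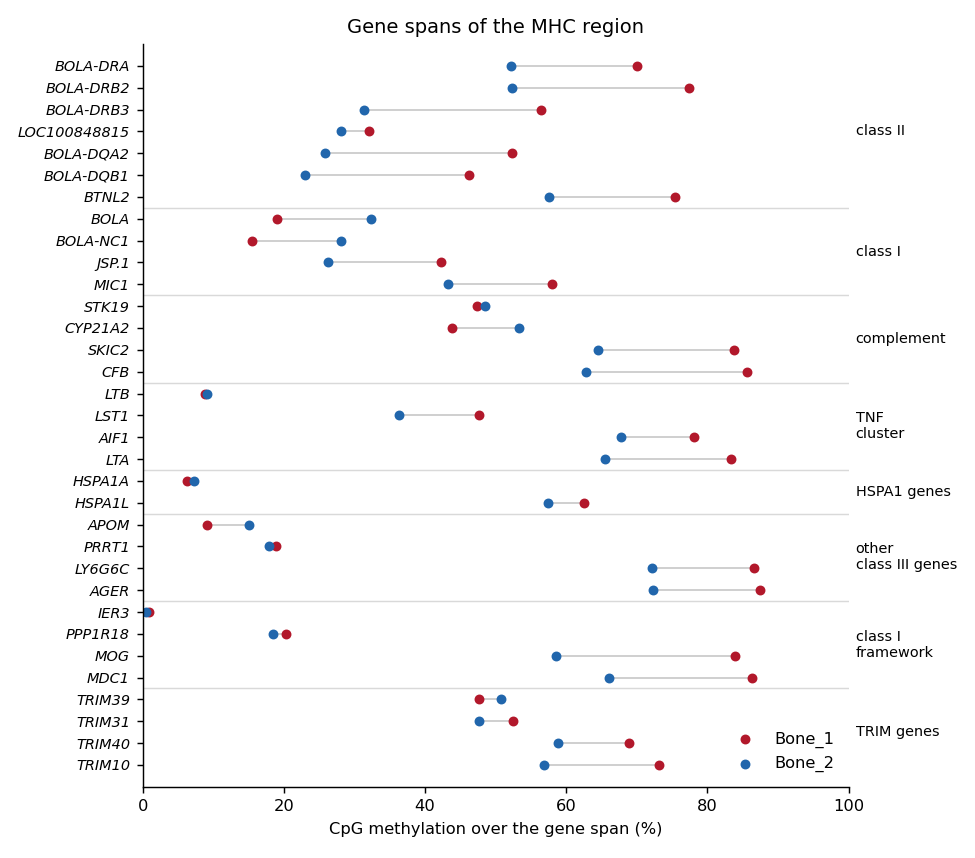
CpG methylation in percent over the gene span in Bone_1 and Bone_2 for the class II genes with 20 or more calls in each sample, the class I genes and the lowest and highest genes of the other lists; each point is a gene in a sample and a grey line joins the samples. IER3, HSPA1A and LTB lie under 10% in both samples, and BOLA-NC1 and CYP21A2 are among the genes with the higher level in Bone_2; BOLA (19% and 32.3% here) is not on the sites called in both samples.

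Over all genes touching the region, 141 spans could be tested. Of these, 103 were higher in Bone_1 and 19 in Bone_2 (Fisher's exact test, adjusted p under 0.05), beside 76.3% and 14.2% of all gene spans. Of the ends, 117 of 262 were higher in Bone_1 and 20 in Bone_2, beside 47.4% and 6.29% of all gene ends. The median span was at 66.0% and 52.1%, beside 72.1% and 58.8% over all protein-coding genes. The gene counts in each direction were thus close to the background. A span level pools calls, and the calls of the samples were spread unequally. Members with 40 or more CpG sites held a median of 1039 calls in Bone_1 and 359.5 in Bone_2. Over all members the medians were 136.5 and 150. The effect of this on the direction of the spans was not tested.

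The member windows were compared between the samples in the same way. Of 3162 windows, 1976 were higher in Bone_1 and 83 in Bone_2 (Fisher's exact test, adjusted p under 0.05), where 64.8% of windows on chromosomes 1 to 29 and X were higher in Bone_1 and 0.977% in Bone_2. The members' shares were 62.5% and 2.62%, and in the rest of chromosome 23 they were 69.1% and 1.32%. The median difference was 16.7 points in the region and 16.9 in the rest. Against the genome-wide odds ratio of 1.84 between the samples, 843 windows differed, 596 towards Bone_1 and 247 towards Bone_2. This was 26.7% of members, near the 25.8% in the rest of chromosome 23. By direction, 18.8% of members went towards Bone_1 and 7.81% towards Bone_2, beside 21% and 4.80% in the rest of chromosome 23. Of all windows 20.5% differed, 16.7% towards Bone_1 and 3.82% towards Bone_2. This test compares the libraries, not conditions, and its p-values are too small because calls on a read are not independent.

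The largest difference among called windows with 10 or more CpG sites lay between BOLA-NC1 and LOC104975666, from 28586001 to 28587000. It was at 80.4% in Bone_1 (387 calls) and 4% in Bone_2, where only 25 calls fell on 6 of its 11 sites (Fisher's exact test, adjusted p = 1.39e-13). On those 6 sites Bone_1 was at 75% of 168 calls. A window in TSBP1, from 27033001 to 27034000, was at 82.8% and 25%, but had under 20 calls in a sample on the sites called in both. A window below that gene, from 26910001 to 26911000, was at 83.7% and 27.5%. The remaining windows of the first 5 lay from 28753001 to 28754000 (89.3% and 29.4%) and from 28682001 to 28683000 (79.8% and 23.5%). All 5 were methylated in Bone_1 and under 30% in Bone_2.

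In the opposite direction, the window from 28050001 to 28051000 was at 25.8% in Bone_1 (31 calls) and 73.7% in Bone_2 (133 calls). A window in LOC101907137, next to the zinc finger gene ZFP57, from 28921001 to 28922000, was at 6.53% (398 calls) and 46.0% (113 calls), with the smallest adjusted p of these 5 windows (9.46e-19, Fisher's exact test). The others lay in LY6G6D (21.7% and 48.5%), at TNXB and CYP21A2 (21.3% and 44.8%, over 89 CpG sites) and in TRIM39 (46.0% and 67.9%). Bone_1 was at intermediate or low levels in all 5. Of the 148 dense members, 42 (28.4%) were higher in Bone_1 and 25 (16.9%) in Bone_2, beside 58.3% and 10.1% of dense windows in the rest of chromosome 23 and 54.5% and 10.4% on chromosomes 1 to 29 and X. Of the 141 members under 20% in both samples, 9 (6.38%) and 28 (19.9%) were, beside 10.2% and 19.5% in the rest of chromosome 23. Such low windows made up 59.5% of the dense members, beside 35.7% of dense windows in the rest. How far this sets the shares of the dense members by direction was not tested.

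**Figure D5:**
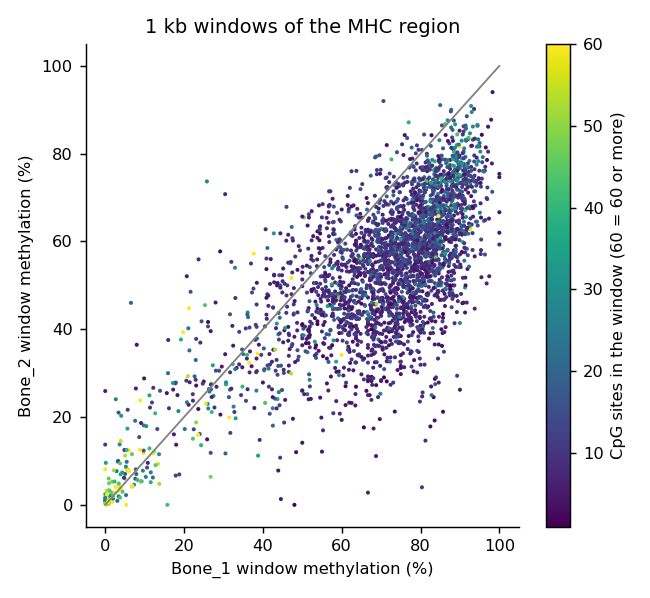
Methylation of each of the 3162 member windows in Bone_2 against Bone_1, in percent; each point is a 1 kb window, coloured by its number of CpG sites, and the line marks equal levels. Most windows lie below the line, with a median difference of 16.7 points, and the dense windows gather at the lower left, where 141 windows are under 20% in both samples.

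At single sites, the samples were compared where each had 10 or more calls. Of 16306 such sites, 34 were nearly unmethylated (10% or less) in a sample and nearly fully methylated (90% or more) in the other, which is 209 per 100000 sites (95% Wilson interval 149 to 291). In the rest of chromosome 23 there were 134 of 272129, or 49.2 per 100000 (41.6 to 58.3). The excess held under each setting tried, with 238 beside 58.0 per 100000 at 5 or more calls, 189 beside 43.4 at 20 or more calls, where only 4 sites of the region were left, and 828 beside 317 with limits of 20% and 80%. Each of these settings used the same rest of chromosome 23. The neighbours alone, against which the window differences turned, were not compared, and window level and depth were not matched. The discordant sites lay in 32 windows, and 31 of 34 were low in Bone_2, 22 of them without a methylated call there. In the rest of chromosome 23, too, most such sites were low in Bone_2 (108 of 134). By 1 Mb part there were 11, 6, 5 and 12 sites, or 289, 369, 90.5 and 224 per 100000 sites compared. The highest rate, from 26 to 27 Mb, rests on 6 of 1626 sites, and the lowest, from 27 to 28 Mb, on 5 of 5523. Of the 34, 18 lay in windows over 60% in Bone_1 and over 50% in Bone_2.

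The 5 with most calls were at 25031337 (90.8% of 98 calls in Bone_1 and 0 of 21 in Bone_2), at 25081959 in GSTA2 (91.1% of 45 calls and 0 of 22), at 26938001 in TSBP1 (90.5% of 21 calls and 0 of 30), at 25722789 (90% of 20 calls and 0 of 29) and at 28922286 in LOC101907137. A count of 0 of 21 allows a level of up to 14.3%, taken as 3 calls of the total. The last of these sites was the only one of the 5 that was low in Bone_1, at 9.38% of 32 calls and 93.8% of 16 in Bone_2. A base that differs from the reference at a CpG site can be read as unmethylated. Genotypes were not analysed here, and the part of sequence differences in these sites was not tested.

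Sites low in both samples were also more frequent over the region as a whole, but unevenly so. In windows over 60% in Bone_1 and over 50% in Bone_2, 69 of 10186 sites (0.677%) were at or under 10% in both samples, beside 0.370% in the rest of chromosome 23. In Bone_1 1.22% of sites were low, beside 0.763%, and in Bone_2 2.06%, beside 0.871%. The 100 kb with the largest share, 8 of 365 sites or 2.19%, hold the glutathione S-transferase genes from GSTA1 to GSTA3. The bins from 25000001 to 25500000, without a gene of the class I or class II lists, ranged from 0.593% to 2.19%. No site low in both samples lay from 25500001 to 27100000, where the listed class II genes lie. A bin held at most 184 of the sites compared there. Bins above 27100000 ranged from 0% to 1.81%.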

How the data were processed

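WGBS libraries of Bone_1 and Bone_2, sequenced as paired 150 bp reads, were analysed. The deposited values are counts of calls per CpG cytosine and strand, methylated and unmethylated in separate columns, made by the authors after trimming, mapping with Bismark and removing duplicates. The submitters' processing notes name FastQC 0.11.5, Trim Galore 0.4.5, Bowtie2, Bismark 0.19.0 and ARS-UCD1.2, whereas the study's methods name other versions and another build (UMD). Whether calls were lost where reads fit near-identical genes was not tested.

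Strands were added together. Chromosomes 1 to 29 and X held 462047525 calls in Bone_1 and 406703424 in Bone_2. Windows of 1 kb with 20 or more calls in each sample were compared with the rest of chromosome 23 weighted to the same CpG numbers. Windows, gene spans and gene ends were tested between the samples with a two-sided Fisher's exact test and Benjamini-Hochberg adjustment over all of them, at 0.05. The test was checked on simulated data with independent calls, so the check does not cover calls that share a read. The members and gene lists were chosen with earlier results of these data known. Of 11 class II entries 9 matched the gene table, and of 11 class I entries 4.

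Named were the 5 windows of 10 or more CpG sites with the largest difference, the 5 with the largest difference towards Bone_2, the 5 longest low runs (of equal length, those with most CpG sites), the 3 lowest and highest bins, every matched gene of the class II and class I lists, the 2 lowest and highest spans of each other list, and the 5 discordant sites with most calls. Promoters were planned but not run, because the ARS-UCD2.0 gene table has no strand. Gene ends and spans, the runs, the no-call stretches, the 4 Mb segments and the part from 26 to 27 Mb were added after seeing the data. Alternatives covered call minimums, window size, depth, the comparison set, the odds ratio and, added later, the sites called in both samples only. The work was done in Python 3.11.15 with numba 0.67.0, scipy 1.17.1, numpy 2.4.6, matplotlib 3.10.9 and pandas 2.3.3.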

Additional observations from a re-analysis of the deposited data

How the results depend on the processing

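No paired analysis was possible because both samples belong to a single group. With each sample left out in turn, the weighted level ranged from 50.9 to 61.3%, the mean window difference to the rest of chromosome 23 from -5.83 to -5.75 points and the difference in the share under 20% from 2.33 to 2.53 points. The tests between the samples and the discordant sites need both samples, so none was left out there. The mean difference became -5.65 with 50 or more calls, -6.20 with 2 kb windows, -5.61 with sites of 5 or more calls and -6.36 against all other autosomes. The share difference became 2.68 with 50 or more calls, 2.91 with sites of 5 or more calls and 2.71 against all other autosomes. Against the 4 Mb on either side only, chosen after seeing the data, both turned, to 4.11 and -5.14, and the cause was not tested. Windows that differed numbered 843 against the genome-wide odds ratio and 1228 with a difference of 20 or more points, beside 2059, and windows higher in Bone_2 numbered 247 against that ratio, beside 83. Discordant sites numbered 79 at 5 or more calls, 4 at 20 or more and 135 with limits of 20% and 80%, beside 34. The count of 68 genes with a low end was 73, 67 and 61 under the settings added for it. The excess from 26 to 27 Mb ranged from 7.34 to 8.08 points. On the sites called in both samples only, 2045 windows differed, 77 were higher in Bone_2 and the excess from 26 to 27 Mb was 7.46 points. There the span of BOLA turned from Bone_2 to Bone_1 as the higher sample (3.54 points, Bone_1 minus Bone_2), and that of BOLA-DQA2 no longer passed the test (10.2 points). The planned results on promoters, with their alternatives, were not run. With 2 samples and 1 tissue, no difference between animals or tissues could be measured, and levels in the thinly covered DQ genes rest on few calls.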
